A study of Mus musculus with 2 samples.

Results

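Of the 43380 reproducible CTCF peaks on chromosomes 1 to 19 in newborn mouse heart, 10745 had no CpG within 50 bp of their summit, which is 24.8% (exact binomial 95% interval 24.4% to 25.2%). A CpG is a C followed by a G on the same strand, the site at which DNA is methylated in mammals. The summit is the base the authors' peak list gives as the highest point of a peak, and the window around it, 50 bp to each side, was read from the mouse reference genome, build mm10. The 11464 peaks with exactly 1 CpG in the window lay just outside the rule. Within the list, the rule used the place of the summit and the sequence around it, not the signal. It was chosen with earlier results of these data known. The 32635 peaks with 1 or more CpG are the comparison throughout. Chromatin immunoprecipitation with an antibody to CTCF, followed by sequencing (ChIP-seq), was done on heart tissue of B6NCrl mice at postnatal age 0 days, of unrecorded sex. The 2 libraries form 1 group, called replicate 1 and replicate 2, and share 1 tissue sample and 1 donor in the labels, so any spread between the libraries may be only technical. The whole reproducible list, called optimal, held 44533 peaks. It was made by the authors with the irreproducible discovery rate, a filter that keeps peaks ranked alike between sets of reads. A peak in it need not stand out in each library alone. Of the 43380 peaks, 89.3% were also in the shorter conservative list of 43221 peaks. Both libraries' 44533 strongest peaks held 83.4% of the 43380. DNA methylation was not measured, and the CpG sites are those of the C57BL/6J reference, not of the animals.

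CTCF is a zinc finger protein that binds a long DNA motif, insulates enhancers from promoters and, together with cohesin, anchors chromatin loops. Some versions of the motif hold a CpG, and methylation at such a site can keep CTCF from binding, as at the imprinting control region of H19 and Igf2 in mammals. Other versions have CpA or TpG in that place and carry no CpG to methylate. Whole heart contains cardiomyocytes, fibroblasts, endothelial and blood cells, and in such bulk tissue a weaker peak may mean fewer cells with CTCF bound or less CTCF in each cell, which cannot be told apart. Peak lists hold no expression, so the labelled tissue was not checked against marker genes.

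The windows of the 6 strongest peaks without CpG and of the strongest in repeat-masked sequence show what CTCF sat on in the absence of any CpG. They are followed by the 3 strongest peaks whose single CpG lies inside the motif. Each is named by its nearest protein-coding gene and read 5′ to 3′ on the strand of its best match to the CTCF core consensus of 14 bases, which is in capitals. The window near Rdh13 had no match with up to 3 mismatches and is printed on the plus strand without capitals. All come from RefSeq's mm10 (GRCm38) genome, and several also hold a second copy of the core in lower case.
Fnbp1l, chr3:122638787-122638887, minus strand: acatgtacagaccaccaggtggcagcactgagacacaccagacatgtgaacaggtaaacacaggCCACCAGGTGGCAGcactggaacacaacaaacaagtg
Crybb3, chr5:113099699-113099799, plus strand: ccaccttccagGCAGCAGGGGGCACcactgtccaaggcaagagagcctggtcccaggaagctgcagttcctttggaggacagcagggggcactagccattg
Rdh13, chr7:4427361-4427461, plus strand: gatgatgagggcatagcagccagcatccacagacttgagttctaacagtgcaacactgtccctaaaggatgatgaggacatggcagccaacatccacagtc
Tmem51, chr4:142153652-142153752, plus strand: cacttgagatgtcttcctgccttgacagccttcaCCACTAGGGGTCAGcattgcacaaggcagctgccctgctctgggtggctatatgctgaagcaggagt
Wnt7b, chr15:85610695-85610795, plus strand: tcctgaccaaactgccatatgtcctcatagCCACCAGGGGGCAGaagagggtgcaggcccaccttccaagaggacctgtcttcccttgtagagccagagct
Ahdc1, chr4:133005409-133005509, minus strand: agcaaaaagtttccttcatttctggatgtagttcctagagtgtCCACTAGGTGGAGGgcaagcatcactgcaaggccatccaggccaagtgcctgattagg
Jph3, chr8:121751570-121751670, minus strand: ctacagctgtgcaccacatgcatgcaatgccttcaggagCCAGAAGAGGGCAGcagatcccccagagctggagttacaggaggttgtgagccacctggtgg
Slc16a8, chr15:79243326-79243426, plus strand, 1 CpG: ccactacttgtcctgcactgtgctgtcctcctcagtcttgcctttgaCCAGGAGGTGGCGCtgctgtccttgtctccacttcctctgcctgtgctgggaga
Fpgs, chr2:32689567-32689667, plus strand, 1 CpG: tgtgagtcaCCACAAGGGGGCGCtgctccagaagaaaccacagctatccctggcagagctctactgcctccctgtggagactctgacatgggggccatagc
Dkk3, chr7:112183375-112183475, plus strand, 1 CpG: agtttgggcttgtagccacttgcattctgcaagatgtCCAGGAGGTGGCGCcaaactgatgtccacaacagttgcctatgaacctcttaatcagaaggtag
In the 3 windows with 1 CpG, the core ends in GCGC. Among the cores without CpG, those near Fnbp1l, Wnt7b and Jph3 end in GCAG and the one near Crybb3 in GCAC. The core near Tmem51 ends in TCAG and the one near Ahdc1 in GAGG, which has no CpA.

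The strongest peak without CpG lay between genes, 19.1 kb upstream of Fnbp1l, which encodes an F-BAR protein of membrane bending and actin assembly. Its signal, the value the authors' list gives for the strength of a peak, on a scale that is not stated, was 417 with both libraries together, 221 in replicate 1 and 195 in replicate 2. It ranked second in the whole list on these chromosomes. The printed window holds 2 copies of a run of 19 bases, 53 bp apart, and with it the same core without mismatch in both copies. The second strongest peak, with a signal of 367 (184 in replicate 1 and 181 in replicate 2), lay 18.2 kb upstream of Crybb3, a lens crystallin gene, inside the gene 2900026A02Rik. Its summit was within 1 kb of the 5′ end of Gm43246, an unverified transcript, so it was also the strongest of these peaks at a promoter. That window, too, holds 2 cores, with a run of 13 bases repeated 67 bp apart.

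The peak near Rdh13, a mitochondrial retinol dehydrogenase gene, had a signal of 342 (188 in replicate 1 and 153 in replicate 2). It sat in an exon of Rdh13, outside its coding sequence. Its window holds 2 copies of a run of 10 bases, 67 bp apart, its best match to the core had 4 mismatches, and it was the strongest of these peaks with no core at 3 mismatches. The peak of signal 335 assigned to Tmem51 lay in an intron of Kazn, which encodes a protein of cell junctions, and measured 168 in replicate 1 and 165 in replicate 2. The intergenic peak 28.3 kb upstream of Wnt7b, a gene for a secreted Wnt ligand, had a signal of 329 (181 in replicate 1 and 148 in replicate 2). Another, 5.80 kb upstream of Ahdc1, an AT-hook DNA-binding protein gene, had 327 (181 in replicate 1 and 144 in replicate 2). The remaining peaks of the 15 strongest fell between 294 and 325. They lay in introns of Xxylt1, a xylosyltransferase of Notch proteins, and of Ctif, a translation initiation factor, in an intron of Lsamp with Gap43 as the nearest 5′ end, in exon sequence within Nemp1 and Osbpl3, near Nab2 and Gsdme, and near Tut7, Zfp236, Itm2c and B3galnt2. In 14 of these 15 peaks replicate 1 was the higher library, and the ratio of replicate 2 to replicate 1 ranged from 0.751 to 1.05. Replicate 1 was also mostly higher elsewhere, with the libraries not scaled to each other. The median log2 ratio of replicate 2 to replicate 1 was -0.22 over all peaks measured in both and -0.25 over those without CpG.

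**Figure D1:**
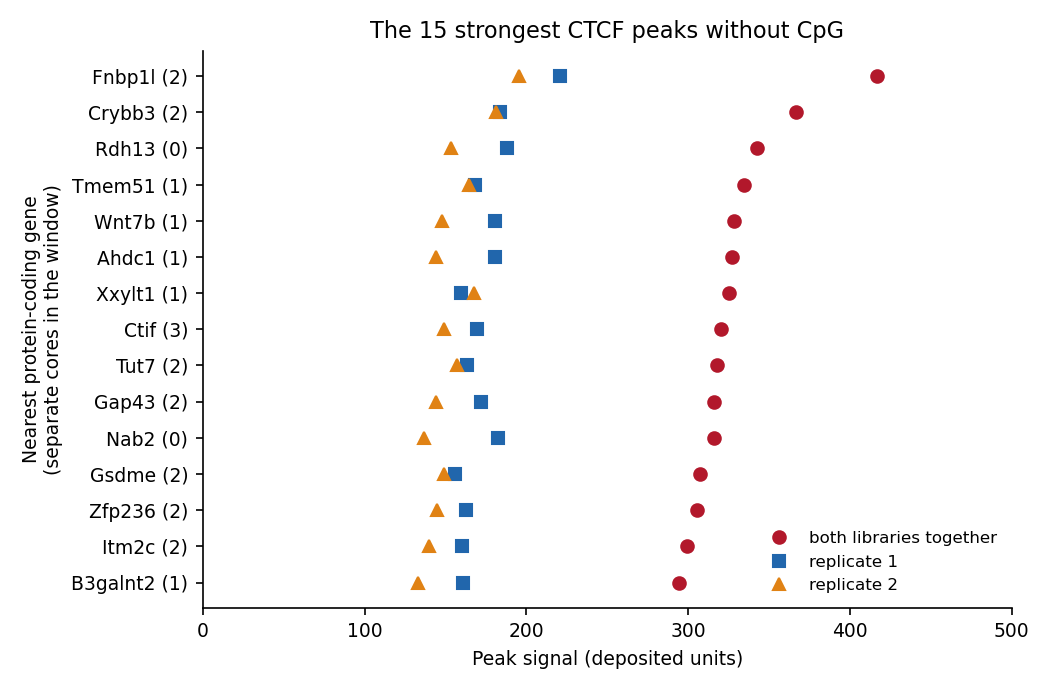
Signal of the 15 strongest CTCF peaks without CpG, in the deposited units, with both libraries together (circles) and in replicate 1 (squares) and replicate 2 (triangles) alone, named by the nearest protein-coding gene with the number of separate cores in the window in brackets. The joint signals run from 294 to 417, and replicate 1 lies to the right of replicate 2 in 14 of the 15 peaks. Over all peaks measured in both libraries the median log2 ratio of replicate 2 to replicate 1 was -0.22.

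Of the 15 strongest peaks without CpG, 13 held at least 1 core with at most 2 mismatches, where 73.4% of all peaks on these chromosomes did. In 8 of them there were 2 or more cores that did not overlap, against 2.24% of all peaks. Among the 100 strongest without CpG, 19 had 2 or more cores and 6 had none, while among the 100 strongest with CpG 49 had 2 or more and 5 had none. The sets reach down to different signals, 241 without CpG and 312 with CpG, and are different fractions of their groups. Such windows were not strong as a rule. The 198 peaks without CpG that held 2 or more cores, 1.84% of the group, had a median signal of 56.5 with quartiles of 30.4 and 114, against a median of 58.0 for the 8147 peaks with 1 core. With CpG, the 773 peaks that held 2 or more cores had a median of 120, against 90.4 for the 22737 peaks with 1 core. Repeat-masked sequence moved with this: it made up 28.8% of the peaks without CpG and 10.3% of those with CpG that had exactly 2 cores, and the medians of unmasked peaks with 2 cores were 71.3 without CpG and 136 with CpG. Its part in the difference was not tested. When exactly 2 cores lay in a window without CpG, they faced the same way in 97 of 191 peaks and began a median of 37 bp apart.

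Windows free of CpG were less frequent under CTCF than in the genome at large. Of all tiles of that length on the same chromosomes, 51.1% held no CpG, and so did 37.6% of windows moved 1000 bp to the left and 37.2% of those moved as far to the right, against 24.8% at the summits. The share was 24.97% among as many strongest peaks of replicate 1 alone and 24.5% in replicate 2 alone (24.8% ± 0.300, SD, n = 2 libraries). Base composition moves with the number of CpG, and the median GC content was 48.5% in windows without CpG and 53.5% in windows with CpG. At equal GC content the order stayed: in windows of 45 to 50% GC, 34.3% of peaks and 41.1% of tiles held no CpG, and at 60 to 65% GC the shares were 5.73% of peaks and 15.5% of tiles.

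Around the windows that the rule keeps free of CpG, the flanks held CpG at a low density. In the peaks without CpG the nearest CpG lay a median of 98 bp from the summit, with quartiles of 69 and 147 bp, and in 781 peaks (7.27%) it was 250 bp or more away. Windows moved 1000 bp to the left held no CpG in 44.2% of peaks without CpG and 35.4% of peaks with CpG, and those moved 5000 bp in 44.4% without CpG and 39.7% with CpG. The density beyond 500 bp and up to 1000 bp from the summit was 1.01 CpG per 100 bp around peaks without CpG and 1.63 around peaks with CpG. In 86 peaks the nearest CpG was 500 bp or more away. The farthest, 935 bp, belonged to a peak 27.0 kb upstream of Nedd4, a ubiquitin ligase gene, with a signal of 138 in both libraries together, 75.9 in replicate 1 and 60.2 in replicate 2. The median signal was 48.8 for peaks with their nearest CpG 50 bp to under 75 bp away, 50.9 up to 100 bp and 52.4 up to 150 bp. It was lower farther out, 44.9 at 150 bp to under 250 bp and 42.8 at 250 bp or more. In the same order, 15.5%, 18.0%, 18.0%, 23.2% and 23.8% of the peaks lay in masked repeats.

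**Figure D2:**
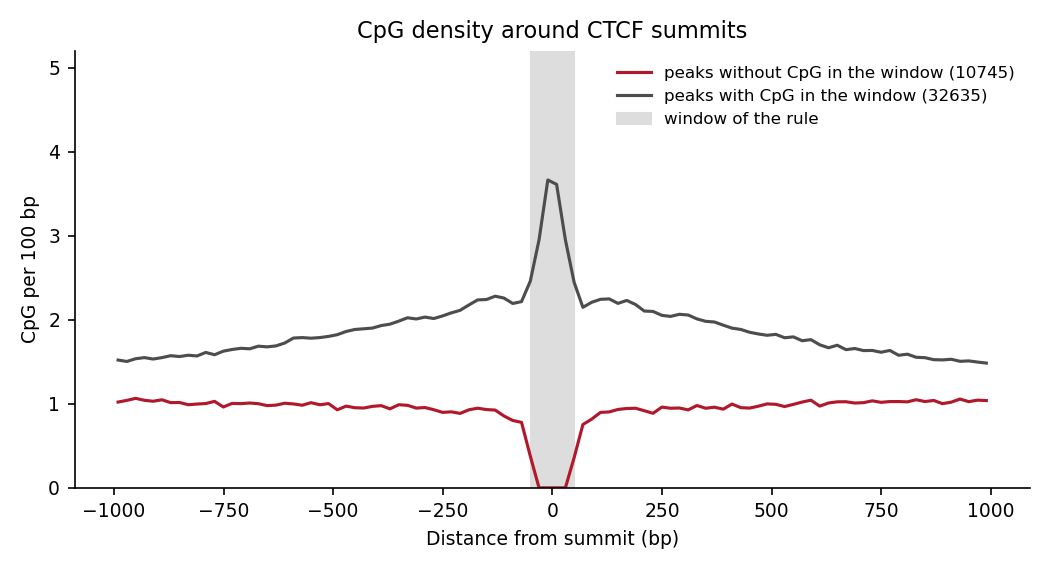
CpG per 100 bp, in bins of 20 bp, by distance from the summit in bp, for peaks without CpG in the window and peaks with CpG, with the window of 50 bp to each side shaded. Peaks without CpG drop to 0 in the window by their definition and average 1.01 beyond 500 bp. Peaks with CpG reach 3.66 at the summit and average 1.63 beyond 500 bp. Their definition, 1 or more CpG in the window, also raises their density there.

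Peaks without CpG were weaker in the median. With both libraries together the median signal was 48.8 without CpG, with quartiles of 25.5 and 99.7, and 67.9 with CpG, with quartiles of 28.4 and 139, a log2 difference of -0.48. Replicate 1 gave 26.7 without CpG and 37.2 with CpG, and replicate 2 gave 22.3 without CpG and 32.0 with CpG, with log2 differences of -0.48 and -0.52. The quartiles of the groups overlapped widely. With the rule applied to the whole deposited peak in place of the window, the log2 difference was 0.044. Peaks are not replicates of a condition, and with 1 group no test was possible, so this and the other comparisons are descriptions, each with its value in both libraries where one exists. Peaks with exactly 1 CpG had a median of 58.5, and the median was higher with each further CpG up to 92.9 at 4 CpG. It was 50.8 in the 3115 peaks with 8 or more CpG, of which 69.1% lay at promoters.

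**Figure D3:**
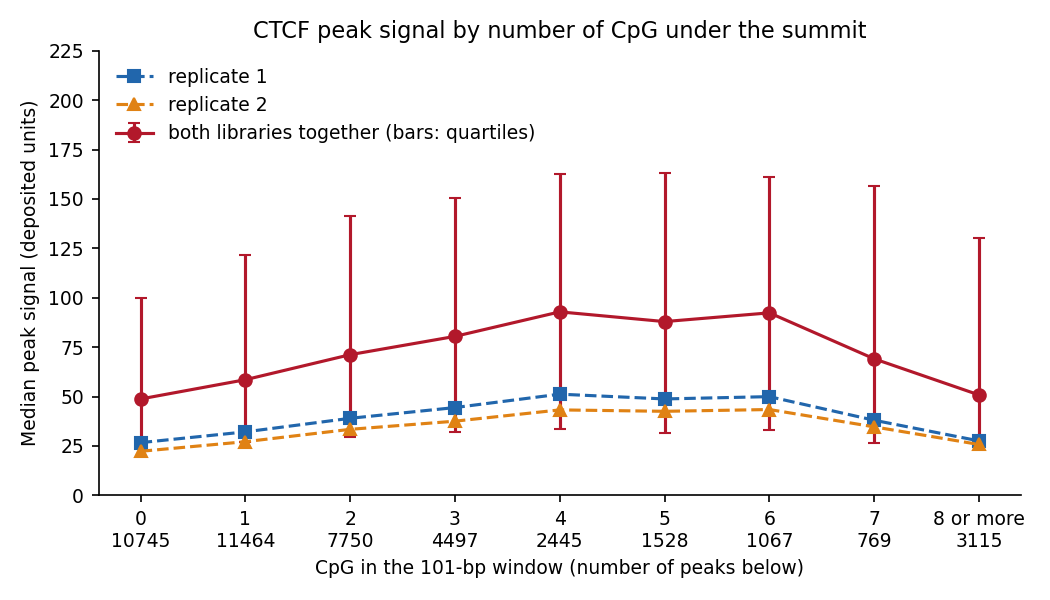
Median peak signal in the deposited units by number of CpG in the window, with the number of peaks under each class, for both libraries together (circles, bars show the quartiles) and for replicate 1 (squares) and replicate 2 (triangles). The joint median is 48.8 without CpG, highest at 92.9 with 4 CpG and 50.8 with 8 or more, and both libraries run in the same order from 0 to 4 CpG.

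The peaks without CpG were spread over the range of signal but thinned out at the top. With all peaks in 10 classes of 4338 by signal, they made up 27.1% of the weakest class, 12.5% of the strongest and at most 30.4%, in the class between signals of 31.9 and 43.9. Only 1 of the 15 strongest, 9 of the 100 strongest and 106 of the 1000 strongest peaks had no CpG.

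The difference in signal was not the same in every class of peaks. At promoters, within 1 kb of a gene's 5′ end, the medians were 48.4 without CpG and 47.2 with CpG, a log2 difference of 0.036 that was -0.031 in replicate 1 and -0.14 in replicate 2. Between genes the medians were 49.1 without CpG and 88.6 with CpG, a log2 difference of -0.85 that was -0.85 in replicate 1 and -0.86 in replicate 2. In introns it was -0.42. Peaks with a perfect core had medians of 110 without CpG and 147 with CpG (log2 -0.42), and those with 1 mismatch had medians of 65.01 without CpG and 100.1 with CpG (log2 -0.62). Without a core of at most 2 mismatches the medians were 28.9 without CpG and 32.0 with CpG (log2 -0.15). In windows with 51 or more masked bases they were 29.8 without CpG and 30.3 with CpG (log2 -0.02). In windows with no masked base the difference was -0.40. The differences between classes were not tested.

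At equal GC content, in classes from 45 to 60% GC, and with a core of at most 1 mismatch, the signal still followed the number of CpG. In windows of 45 to 50% GC the median was 74.9 in the 1275 peaks without CpG, 97.8 with 1 CpG, 111 with 2, 126 with 3 and 137 with 4. At 50 to 55% GC it was 80.0 in the 1161 peaks without CpG and 155 with 4 CpG, and at 55 to 60% GC it was 86.2 in the 540 peaks without CpG and 151 with 4 CpG. Both libraries gave the same order in each of these GC classes. With the same limit on the core, the log2 difference between peaks without and with CpG was -0.56, -0.60 and -0.63 in these classes. It was smaller at lower GC content, -0.27 at 35 to 40% GC and -0.24 at 40 to 45% GC, and -0.57 at 60 to 65% GC. Medians by number of CpG were not computed for those other classes. Among intergenic peaks with no masked base, the log2 difference between peaks without and with CpG was -0.40 at a perfect core, -0.65 at 1 mismatch, -0.84 at 2 mismatches and -0.52 at 3 mismatches. Other properties that vary with the number of CpG, such as the bases flanking the core, were not held equal, and their part was not tested.

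**Figure D4:**
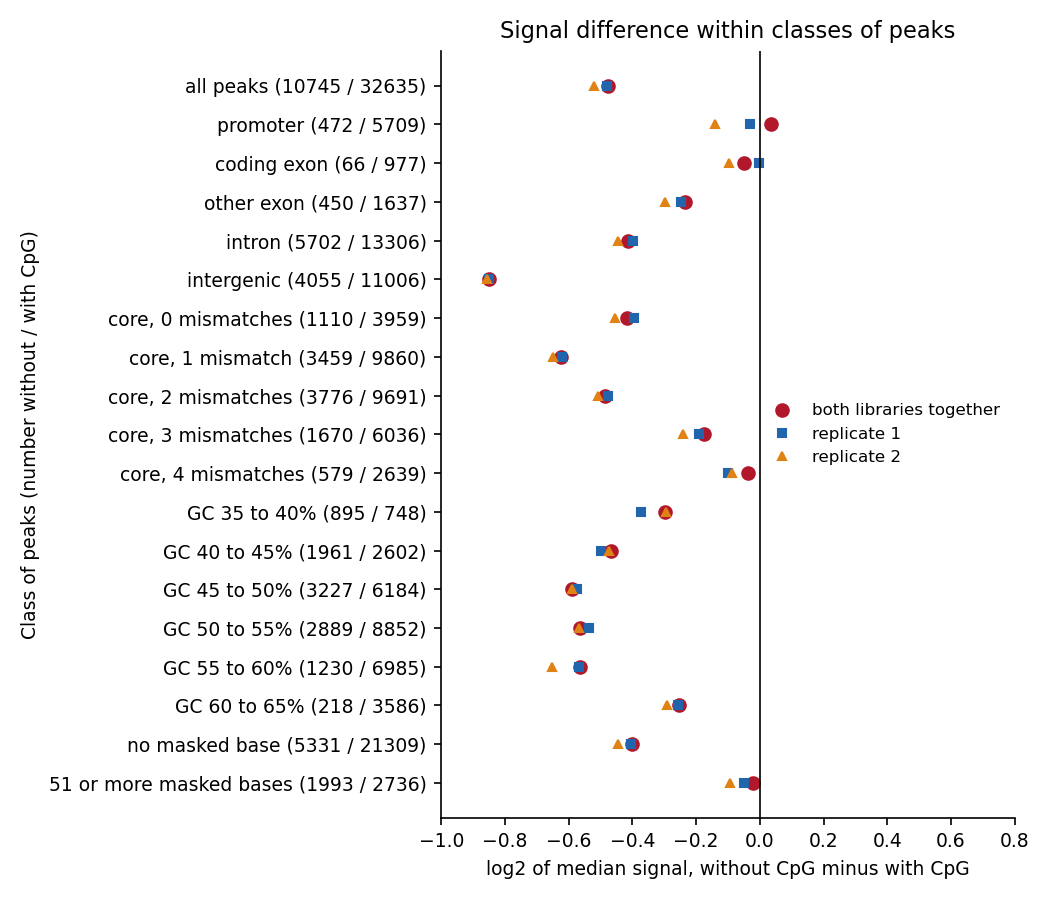
Log2 of the median signal of peaks without CpG minus that of peaks with CpG within classes of peaks, by genomic context, mismatches to the core, GC content of the window and masked bases, with the number of peaks without and with CpG in brackets, for both libraries together (circles), replicate 1 (squares) and replicate 2 (triangles). The difference is widest between genes at -0.85 and near 0 at promoters (0.036) and in masked windows (-0.02).

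A core with at most 2 mismatches was present in 77.7% of peaks without CpG (95% interval 76.9% to 78.4%) and in 72.0% of peaks with CpG. In the strongest peaks of each library alone it was present in 77.6% of replicate 1 and 74.9% of replicate 2 without CpG, and in 71.9% of replicate 1 and 69.8% of replicate 2 with CpG. A perfect core was found in 10.3% of peaks without CpG and in 12.1% of those with CpG. The groups lay farthest apart at promoters, where 76.9% of peaks without CpG and 52.9% of peaks with CpG had a core, and in coding exons, with 86.4% without CpG and 66.2% with CpG. In introns the shares were 76.8% without CpG and 74.9% with CpG, and between genes 78.9% without CpG and 79.2% with CpG. The core lay a median of 5.5 bp from the summit in both groups, and 50.1% of the cores without CpG and 49.5% of those with CpG were on the plus strand.

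Within the core, positions are counted from 1 at its 5′ end. CpG can occur at positions 12 and 13 of the consensus, and 40.1% of the 22790 single best cores in peaks with CpG had it there, while the rule leaves none in the 8094 of peaks without CpG. In its place, CpA stood in 70.3% of the cores without CpG, and in 70.1% of the cores of peaks with CpG that had no CpG at these positions. TpG stood in 7.55% without CpG and in 6.99% of those remaining with CpG. At positions 2 and 3, where 6.61% of cores with CpG had CpG, CpA stood in 89.99% of cores without CpG and in 86.4% of the remaining cores with CpG. An A at position 5, a mismatch to the consensus, was found in 27.5% of cores without CpG and in 21.2% of the 12361 cores that held no CpG themselves but lay in peaks with CpG. Cores that recur in repeats also had that base.

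The signal of peaks with exactly 1 CpG and a single best core was set beside the place of that CpG. The median was 71.3 in the 1916 peaks that had it at positions 12 and 13, and 74.7 in the 6406 that had it outside the core, against 58.3 in the 8094 peaks without CpG. With a perfect core the medians were 110 in 1106 peaks without CpG, 132 in 1076 peaks with the CpG outside the core and 125 in 368 peaks with it at positions 12 and 13. Replicate 1 gave 59.9, 70.9 and 68.4 in that order, and replicate 2 gave 49.3, 59.6 and 56.99. With 2 mismatches the medians were 42.3 in 3561 peaks without CpG, 51.3 in 2564 with the CpG outside the core and 46.6 in 650 with it at positions 12 and 13. The 107 peaks with their CpG at positions 2 and 3 had a median of 90.4.

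Repeats, which the reference genome marks in lower case, held more of the peaks without CpG. At least 51 bases of the window were masked in 18.5% of peaks without CpG (95% interval 17.8% to 19.3%) and in 8.38% of peaks with CpG, where 10.9% of all peaks were. The share was 19.1% in replicate 1 alone and 18.1% in replicate 2 alone for peaks without CpG, and 8.53% and 8.05% in the same libraries for peaks with CpG. Masked peaks were weak. Median signals among peaks without CpG were 61.6 with no masked base, 50.5 with 1 to 50, 30.7 with 51 to 100 and 25.7 in fully masked windows. Reads from near-identical copies are hard to place, and it is not given in the sources used here how the authors treated them. The strongest masked peak, of signal 246 (133 in replicate 1 and 112 in replicate 2), lay in an intron of Jph3, a junctophilin gene, and its window is printed above.

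The same few cores recurred across these repeats. The 8094 single best cores without CpG came in 2056 different sequences, and the most frequent one occurred in 554 peaks, 490 of them masked. Another was found in 374 peaks, 333 of them masked, and one more in 109 peaks, 77 of them masked. All 3 have an A at position 5 and differ in their last base. They are shown with 8 bases to each side, in the 2 strongest peaks of each whose single best core it was. The core is in capitals, and the sequences come from the mm10 genome of RefSeq, to let the core and its flanks be seen.
Gsta4, chr9:78194114-78194143, minus strand: cccatatgCCAGAAGAGGGCATcagttccc
Smurf1, chr5:144988965-144988994, minus strand: cctgcaggCCAGAAGAGGGCATcagatccc
Ppp1r14c, chr10:3333050-3333079, plus strand: cacagaggCCAGAAGAGGGCACtctggaac
Mctp2, chr7:72240213-72240242, plus strand: aagagtagCCAGAAGAGGGCACcagctaca
Pelp1, chr11:70414149-70414178, plus strand: catagagaCCAGAAGAGGGCAGtagatccc
Ctsh, chr9:90077071-90077100, minus strand: cttggaggCCAGAAGAGGGCAGcagatcca
The bases after the core are nearly alike near Gsta4, Smurf1, Pelp1 and Ctsh, and differ more near Ppp1r14c and Mctp2. The Jph3 window printed earlier holds the last of the 3 cores as 1 of 2 equal best matches and was not counted here. Its bases after that core are the same as those near Smurf1. The first of these cores had a median signal of 29.6 in peaks without CpG, with a range of 10.98 to 206, and a median of 33.5 in the 548 peaks with CpG that also carried it. Its strongest peak, in an intron of the glutathione transferase gene Gsta4, had 206 in both libraries together, 121 in replicate 1 and 85.8 in replicate 2. The second core had a median of 33.2 without CpG and 37.4 in 360 peaks with CpG. Next in frequency came a pair of perfect cores, each in 76 peaks without CpG, of which 12 were masked for one and 2 for the other. Their medians were 92.9 and 83.8 without CpG, and 136 and 150 in the peaks with CpG that carried them. Cores with their 8 flanking bases on each side were seldom identical at every base: 176 of the 8094 were shared by 2 or more peaks. Of those, 82.4% were masked. Sequences that differ by a single base count as different here.

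Peaks without CpG lay less often at promoters and more often inside introns. Promoters held 4.39% of them, or 472 peaks, against 17.5% of peaks with CpG and 14.2% of all peaks. The share at promoters in each library alone averaged 4.29% ± 0.122 without CpG and 17.5% ± 0.276 with CpG (SD, n = 2 libraries). Coding exons held 0.614% of peaks without CpG and 2.99% of peaks with CpG. Other exons held 4.19% without CpG and 5.02% with CpG, introns 53.1% without CpG and 40.8% with CpG, and intergenic DNA 37.7% without CpG and 33.7% with CpG. In each of these 5 classes the difference between the groups was larger than the difference between the libraries within a group. Promoters of protein-coding genes are often rich in CpG, so the rule itself bears on this comparison.

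**Figure D5:**
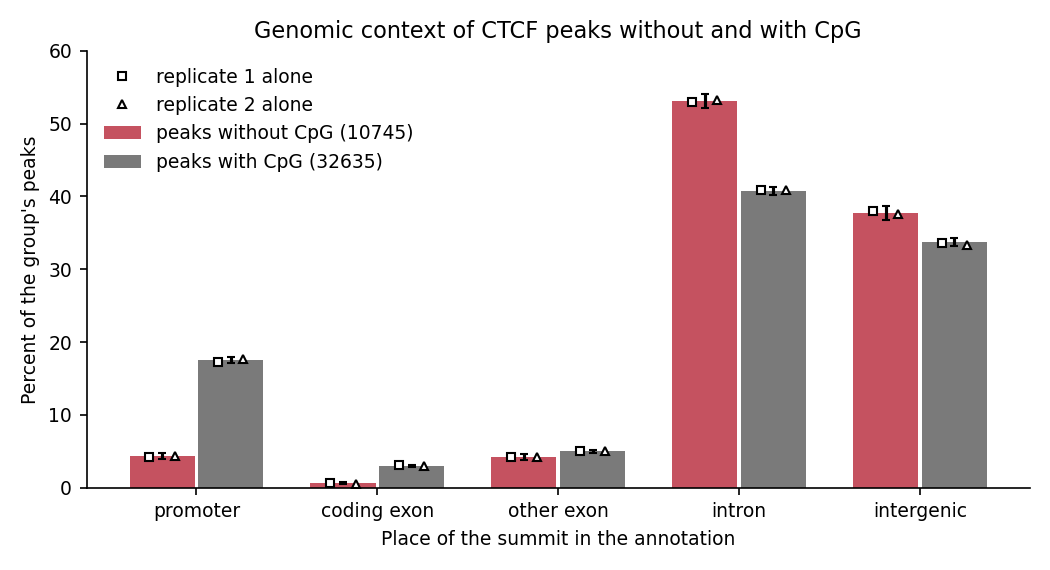
Percent of the peaks of each group by place of the summit in the annotation, peaks without CpG left of peaks with CpG, with exact binomial 95% intervals (bars) that cover counting error only and the shares in the strongest peaks of replicate 1 (squares) and replicate 2 (triangles) alone. Promoters held 4.39% without CpG and 17.5% with CpG, and introns 53.1% without CpG and 40.8% with CpG.

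The promoters in question were often not those of protein-coding genes. The nearest 5′ end belonged to a protein-coding gene in 32.6% of the 472 promoter peaks without CpG and in 72.8% of the 5709 with CpG. Small nucleolar RNA genes accounted for 50 of the peaks without CpG (10.6%) and 82 with CpG (1.44%), processed pseudogenes for 11.9% without CpG and 2.96% with CpG, and lincRNA genes for 14.0% without CpG and 7.32% with CpG. Among protein-coding promoters without CpG, named here after their values were seen, the strongest were those of Lrrn3, a neuronal leucine-rich repeat protein gene, and of Gfap, the intermediate filament gene of astrocytes. The Lrrn3 peak, 794 bp upstream of the 5′ end, had a signal of 232 (120 in replicate 1 and 112 in replicate 2). The Gfap peak, 87 bp upstream, had 230 (108 in replicate 1 and 123 in replicate 2). A peak 125 bp upstream of Kifap3, which encodes a kinesin-associated protein, had 218 (117 in replicate 1 and 100.9 in replicate 2). The windows at Lrrn3 and Gfap held a perfect core, and the one at Kifap3 had 1 mismatch. The third strongest promoter peak of any gene type, of signal 236, lay at the pseudogene Gm5119, 27.7 kb upstream of the amino acid transporter gene Slc36a4.

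In coding exons the strongest peak without CpG lay in Dglucy, the D-glutamate cyclase gene, with a signal of 254 (131 in replicate 1 and 121 in replicate 2). The next were in Tecpr2, with 181, and in the growth hormone releasing hormone receptor gene Ghrhr, with 150. Peaks without CpG were also farther from genes. The median distance to the nearest 5′ end of a protein-coding gene was 33.3 kb without CpG and 19.8 kb with CpG, and 23.3% without CpG and 15.3% with CpG lay over 100 kb away. The nearest other CTCF peak was a median of 11.7 kb from a peak without CpG and 8.31 kb from a peak with CpG.

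Of the 20807 protein-coding genes on these chromosomes, 2725 (13.1%) had a peak without CpG within 10 kb of their 5′ end. For 1140 of these 2725 genes no peak with CpG lay that near, so such a gene was not rare among them. These 1140 included Rab17, a gene of vesicle transport, with a peak 3.79 kb upstream of signal 287 (164 in replicate 1 and 121 in replicate 2). Tanc2, a synaptic scaffold gene, had one of signal 276 in an intron (149 in replicate 1 and 127 in replicate 2). Both were named after their values were seen. The lists of heart and other genes below are small, and the exact binomial 95% interval of the share held 13.1% for each of the 12 lists. Neighbouring genes can share a peak, as clustered genes such as Hox genes may, so genes are not independent counts and these intervals may be too narrow. The share with a peak of either kind within 10 kb ran from 38.5% of blood genes to 76.9% of Hox genes. Over all protein-coding genes that share was 51.9%, and every list except blood lay above it.

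Among the contractile genes, 7 of 30 sarcomere genes (23.3%, 95% interval 9.93% to 42.3%) had such a peak. The strongest lay 7.34 kb downstream of the 5′ end of Tnnc1, cardiac troponin C, in an intron of the neighbouring gene Nisch, with a signal of 231 (126 in replicate 1 and 104 in replicate 2). The next was in an intron of Nexn, a protein of the Z-disc, with 168 (93.5 in replicate 1 and 74.7 in replicate 2). No peak with CpG lay within 10 kb of Nexn, as for 2 of these 7 sarcomere genes and 1140 of the 2725 genes above. The myosin heavy chain genes, named after their values were seen, had peaks of signal 28.2 at Myh7 and 17.9 at Myh6. The Myh6 peak measured 5.41 in replicate 1 and 10.1 in replicate 2, and its best match to the core had 4 mismatches. Of the cardiac transcription factor genes 6 of 34 (17.6%) had a peak without CpG. The strongest were in introns of Myocd, a coactivator of muscle genes, with 92.3, and Tbx18, a factor of the epicardium, with 88.0, and neither had a core with at most 2 mismatches. Gata4, also named after its value was seen, had a peak of 20.7 (13.7 in replicate 1 and 6.13 in replicate 2). Its best match to the core had 4 mismatches. Of the 6 genes, 1, Gata4, had no peak with CpG within 10 kb.

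Of the ion channel and calcium handling genes 5 of 32 (15.6%) had a peak without CpG. The one in an intron of Kcnj11, the pore of the ATP-sensitive potassium channel, had a perfect core and a signal of 213 (109 in replicate 1 and 101.01 in replicate 2). The one in an intron of the potassium channel gene Kcnq1 had 65.7 (26.1 in replicate 1 and 39.7 in replicate 2). Of the fatty acid and mitochondrial genes 4 of 32 (12.5%) had one, led by Acadvl, an acyl-CoA dehydrogenase gene, with 112 in an intron of the neighbouring gene Dlg4, and by Cpt1a, the carnitine palmitoyltransferase of the outer mitochondrial membrane, with 50.9.

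The genes of other cell types of the heart had such peaks too. Among endothelial genes 4 of 28 (14.3%) had a peak without CpG, and the strongest, 7.34 kb upstream of the transcription factor gene Sox18, had 264 (140 in replicate 1 and 124 in replicate 2). The nearest protein-coding gene of that peak was Tcea2, with its 5′ end 1.33 kb away. Sox18 had 3 peaks without CpG and no peak with CpG within 10 kb. Cdh5, the gene of VE-cadherin, had 1 without CpG, of signal 79.1, likewise with no peak with CpG that near. This held for 3 of the 4 endothelial genes and for 1140 of the 2725 genes above. Fibroblast and matrix genes gave 3 of 26 (11.5%), with 198 in an intron of the receptor gene Pdgfra and 105 upstream of the matrix gene Postn. Blood genes gave 1 of 26 (3.85%, 95% interval 0.0973% to 19.6%), at the beta globin gene Hbb-bt, with 68.9. Housekeeping genes gave 7 of 29 (24.1%), with 155 in an exon of the tubulin gene Tubb5 and 120 in Sdha, a subunit of mitochondrial complex II.

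Imprinted genes, at which CTCF sites with CpG are best known, had a peak without CpG in 10 of 57 cases (17.5%, 95% interval 8.75% to 29.9%). The strongest were upstream of Trappc9, a vesicle trafficking gene, with 205 (101.96 in replicate 1 and 103 in replicate 2), and in an intron of Osbpl5, with 174 (86.9 in replicate 1 and 85.8 in replicate 2). Both held a perfect core. None of the 4 peaks within 5 kb upstream of H19 was free of CpG, where 24.8% of all peaks were, so the count is too small to set H19 apart. Their windows held 2, 7, 5 and 6 CpG in order of distance from the gene. The imprinted gene Ins2, named after its value was seen, had a peak without CpG of signal 147 (80.8 in replicate 1 and 65.8 in replicate 2). Of the 39 Hox genes, 1 (2.56%, 95% interval 0.0649% to 13.5%) had a peak without CpG, Hoxa4, with a signal of 16.6, while 30 had a peak of either kind (76.9%), as did 51.9% of all protein-coding genes. Genes of CTCF, cohesin and its loading gave 3 of 27 (11.1%), led by Zfp143, a zinc finger factor, with 41.5, and the cohesin regulator Pds5a, with 22.8. Genes of DNA methylation and its removal gave 4 of 20, led by the DNA glycosylase gene Mbd4, with 106, and Apobec1, a cytidine deaminase, with 71.0.

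Both libraries held most of these peaks. A peak counted as found in both when each library's 44533 strongest peaks had a summit within 100 bp, which was so for 81.5% of peaks without CpG (95% interval 80.7% to 82.2%), for 84.0% of peaks with CpG and for 83.4% of all. Replicate 1 alone held 90.01% without CpG and 90.7% with CpG, and replicate 2 alone held 87.0% without CpG and 89.3% with CpG. Of the peaks without CpG found in both relaxed lists, the longer lists of 300000 peaks each, the median of the absolute log2 ratio between libraries was 0.34, against 0.30 for peaks with CpG. Across peaks, Spearman's rho between the libraries was 0.926 without CpG and 0.953 with CpG, a description over peaks that share both libraries. The share found in both depends on strength by its definition, since each library's list was cut by signal. Of the 2686 weakest peaks without CpG, with signals from 5.52 to 25.5, 29.6% were found in both libraries, and of the 2687 strongest, with 99.7 to 417, 99.96% were. In the relaxed lists, 89.7% of the weakest and 99.96% of the strongest had a summit in both libraries. The weakest had a core in 61.4%, a perfect core in 2.68% and masked sequence in 30.1% of peaks, where the strongest had a core in 91.7%, a perfect core in 22.7% and masked sequence in 5.43%. Promoters held 4.88% of the weakest and 4.06% of the strongest.

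No chromosome stood far from the others. The share of peaks without CpG ranged from 21.9% on chromosome 11 to 27.8% on chromosomes 12 and 16, and their number from 3.77 per Mb on chromosome 3 to 6.00 per Mb on chromosome 11. The median signal of peaks without CpG ranged from 42.4 on chromosome 8 to 53.1 on chromosomes 7 and 13. Chromosome 11, with the lowest share, had the highest GC content, 43.8%, and chromosome 3, with the lowest, 40.5%, had a share of 26.2%.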

How the data were processed

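CTCF ChIP-seq peak lists of 2 libraries of 1 group were analysed. The signal of each peak is the authors' deposited value in narrowPeak lists on mm10, per the labels and file headers, made against a control alignment not used here. Neither the aligner nor the peak caller is given in the sources used here, and read depth is unknown, so intervals on shares (exact Clopper-Pearson, 95%) cover counting error only. Peaks on chromosomes 1 to 19 of the optimal list were read from the GRCm38 genome of RefSeq. Both strands were searched for the core consensus, allowing 2 mismatches, and separate cores do not overlap. A library's signal at a peak is that of its nearest relaxed summit within 100 bp, and libraries were not scaled to each other. GENCODE M21 gave 5′ ends of gene records, with promoter taken first, then coding exon, other exon, intron and intergenic. No test was run. The members and the 12 gene lists were chosen with earlier results of these data known. Named genes are those nearest the 15 strongest peaks, 2 per list, the 3 strongest per context, and the strongest masked, coreless and recurrent peaks. Nedd4, Lrrn3, Gfap, Kifap3, Rab17, Tanc2, Myh6, Myh7, Gata4, H19, Ins2 and the genes beside recurrent cores were chosen after their values were seen. Python 3.11.15, numpy 2.4.6, pandas 2.3.3 and scipy 1.17.1 were used. On simulated data 100% of cores planted in 2000 windows were found, and 1.70% of random windows had one.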

Additional observations from a re-analysis of the deposited data

How the results depend on the processing

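The log2 signal difference between peaks without and with CpG stayed below 0 in 10 of 11 alternatives. Peaks under 200 bp wide had a median signal of 179 and those 224 bp wide 42.5. With the rule applied to the whole deposited peak, the log2 difference was 0.044, and the part of peak width in it was not tested. It was -0.43 with windows of 25 bp to each side of the summit (narrow), -0.44 with 100 bp to each side (wide), -0.49 in the conservative list, -0.40 without masked bases, -0.65 in peaks with a core, -0.58 outside promoters, -0.31 as a difference of means, and -0.47 to -0.46 with either library left out. For the narrow and wide windows and the whole peak, in that order, the share without CpG was 39.4%, 12.2% and 12.5%, their promoter share 5.13%, 3.60% and 3.72%, and the share of genes near one 20.5%, 6.36% and 6.80%. Masked shares were 16.4% and 20.6% with the narrow and wide windows. Intergenic shares were 39.5% with the wide window and with the whole peak, which also gave a core share of 81.4% and 84.8% found in both libraries. The conservative list gave promoters 4.13%, genes 12.9% and both libraries 86.2%. With either library left out, core shares were 74.9% to 77.6%, promoter shares 4.20% to 4.37% and gene shares 13.07% to 13.10%. The core share was 42.5% at 1 mismatch and 93.2% at 3. Masked shares were 50.4% with any masked base and 23.5% by the summit base. Promoter shares were 2.20% within 500 bp, 9.41% within 2000 bp (intergenic 35.6%) and 8.37% by transcript 5′ ends. Genes near one were 6.73% within 5 kb and 48.0% within 50 kb, and 80.7% of peaks were found in both libraries within 50 bp. Of 64 alternative values, 22 moved by less than the spread between the libraries or the counting interval. No paired analysis was possible because the replicate numbers occur in 1 group, so they pair no samples across groups. Differences between peak classes within each library stand in the report. Weak peaks are the least certain, and unknown depth limits every signal.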
